A study of Mus musculus with 6 samples.

Results

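The measurements concern 38 genes of cell division and DNA replication, out of 32285 genes counted in every library. They were picked by symbol for what their products do, and all 38 symbols were present in the 3 gene expression matrices. Of these, 20 act in mitosis (Mki67, Top2a, Cdk1, Ccna2, Ccnb1, Ccnb2, Ube2c, Birc5, Cenpa, Cenpe, Cenpf, Cdc20, Bub1, Bub1b, Plk1, Aurka, Aurkb, Tpx2, Kif11 and Kif20a), 16 act at the start of the cell cycle or in DNA synthesis (Pclaf, Mcm2 to Mcm7, Pcna, Tyms, Rrm1, Rrm2, Tk1, Gins2, Ccne1, Ccne2 and E2f1, called S-phase members here), and 2, Stmn1 and Hmgb2, are general growth genes that rise in dividing cells and are also made outside division. Single cells came from the submandibular gland of mice, a salivary gland whose acini secrete saliva proteins into intercalated, granular and larger ducts, with basal duct cells and contractile myoepithelial cells beneath them. All mice were wild-type females of the inbred strain C57BL/6J. The first group was the basal compartment of untreated glands, sorted as Epcam-positive and high in Cd49f, the product of Itga6. In the second group all Epcam-positive cells of untreated glands were taken, and in the third all Epcam-positive cells 90 days after 30 Gy given to the left gland. Each group was 1 droplet library that pooled 3 mice, told apart by hashtag antibodies (n = 3 mice per group). Cells positive for DAPI, Cd3, Cd16/Cd32, Cd31 or Cd45 had been removed by the sort. The labels give 8 to 10 weeks of age for every group, which cannot be the age at collection of the irradiated mice.

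A cell that enters the cycle first switches on E2F target genes, among them cyclin E, the minichromosome maintenance (MCM) helicase subunits that license replication origins, and the enzymes that make deoxynucleotides. Later the cyclin-dependent kinase Cdk1 with cyclins A and B drives the cell into mitosis, kinetochore and spindle proteins move the chromosomes, and the anaphase-promoting complex with its activator Cdc20 and its conjugating enzyme Ube2c destroys the cyclins. In adult salivary gland most epithelial cells are at rest, and division is slow and spread over several duct and acinar cell types.

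The promoters of these genes carry short motifs that their textbook regulators use, so 5 of them are shown. RefSeq promoters of build GRCm38.p6 were matched by symbol for 30 of the 38 members. Ccna2, Aurkb, Tpx2, Kif20a, Mcm4, Gins2, Ccne2 and Stmn1 had no entry. Each line gives the 120 bases before the annotated start of a gene, 5′ to 3′ on the gene's own strand. Capitals mark the CCAAT box (bound by NF-Y), the cell cycle homology region TTTGAA (bound by the MuvB complex) and E2F sites, on either strand. E2F sites were searched in 4 forms. The plainest was TTCCCGC. Another form had the letters TTGGCGC. Likewise TTGCCGC was taken. The last form was TTCGCGC. Matches that overlap, as forms on opposite strands can, were counted as 1. The regions are chr10:69352913-69353032 on the minus strand (Cdk1), chr2:164769809-164769928 on the plus strand (Ube2c), chr1:128359706-128359825 on the minus strand (Mcm6), chr2:132253181-132253300 on the minus strand (Pcna) and chr8:57511723-57511842 on the plus strand (Hmgb2).
Cdk1: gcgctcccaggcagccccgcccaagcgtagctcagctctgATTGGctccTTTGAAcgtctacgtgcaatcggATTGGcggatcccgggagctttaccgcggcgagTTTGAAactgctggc
Ube2c: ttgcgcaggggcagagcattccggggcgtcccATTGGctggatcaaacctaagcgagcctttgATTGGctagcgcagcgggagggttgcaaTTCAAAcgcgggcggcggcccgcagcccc
Mcm6: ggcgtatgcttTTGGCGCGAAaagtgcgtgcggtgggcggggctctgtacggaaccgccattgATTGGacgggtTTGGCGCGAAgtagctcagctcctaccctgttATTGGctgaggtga
Pcna: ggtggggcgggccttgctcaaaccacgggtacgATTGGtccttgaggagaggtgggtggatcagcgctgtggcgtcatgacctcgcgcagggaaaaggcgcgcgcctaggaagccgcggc
Hmgb2: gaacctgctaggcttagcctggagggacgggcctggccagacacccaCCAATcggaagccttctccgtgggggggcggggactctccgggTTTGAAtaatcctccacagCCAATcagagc

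Cdk1 and Ube2c are mitotic members with both CCAAT and TTTGAA in this window and no E2F letters. In Cdk1, CCAAT lay at -80 and -48 and TTTGAA at -71 and -15, counted to the leftmost base, with -1 the base before the start. Mcm6, an S-phase member, held 2 CCAAT boxes and 2 stretches in which E2F letters on both strands overlap, at -109 and -46. Pcna held 1 CCAAT box, and Hmgb2 2 CCAAT boxes and 1 TTTGAA. Over the window from 250 bases before to 50 after the start, CCAAT was present in 15 of 16 mitotic promoters (93.8%), 9 of 13 S-phase promoters (69.2%) and 41.1% of the 27025 gene promoters in the table. TTTGAA was present in 12 of 16 mitotic promoters (75%), 1 of 13 S-phase promoters (7.69%) and 20.2% of all promoters, and E2F letters in 3 of 16 (18.8%), 7 of 13 (53.8%) and 10.9%. In the 150 bases before the start alone, TTTGAA was left in 37.5% of mitotic promoters, against 10.5% of all, and E2F letters in 4 of 13 S-phase promoters (30.8%), against 6.35% of all. These are letter matches and were not set against any binding data.

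The libraries of basal, untreated and irradiated cells held 5044, 8277 and 3319 barcodes with 59207148, 137835128 and 58485558 UMIs, the counts of single RNA molecules. After filters, 3073, 2090 and 2063 cells were kept, from 347 to 1259 per mouse, with a median of 13412, 12152 and 19921 UMIs and a median mitochondrial share of 4.91%, 9.61% and 4.49%. In the untreated epithelium 43.4% of passing barcodes had no hashtag call, against 22.6% and 11.2% in the other libraries. The libraries shared 15, 1 and 8 barcodes (basal with untreated, basal with irradiated, untreated with irradiated). Group and library coincide, as does age in the irradiation comparison, so they cannot be told apart, and p-values measure the spread between mice that went through 1 pooled library. Itga6, the gene of the sort marker, was higher in the basal sort (187 against 68.6 CPM, a gene's UMIs scaled to a fixed total per mouse), whereas Epcam was not called (log2 fold change 0.13). Pecam1, an endothelial gene, was also higher there, and 115 of its kept cells were endothelial-like. Ptprc, the gene of Cd45, was not counted in the basal mice.

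Cells with many mitotic transcripts were found mainly in the basal sort. A cell was called dividing where UMIs of at least 4 of the 20 mitotic members were found, which names a range of a count and not a cell type. Each cell was first thinned to 5000 UMIs to set depths equal, which left out 220 basal, 228 untreated and 142 irradiated cells that were shallower. In the basal sort 76 of 2853 cells passed, or 3.18%, 1.5% and 2.93% in the 3 mice, a mean of 2.54% ± 0.905 (SD, n = 3). In the untreated epithelium 8 of 1862 cells passed, with 0.642%, 0.152% and 0.516% per mouse (0.437% ± 0.255). In the irradiated epithelium 9 of 1921 passed, with 0%, 0.661% and 0.246% per mouse (0.302% ± 0.334). Every basal mouse lay above every untreated and irradiated mouse, and the untreated and irradiated ranges overlapped. Basal mouse 2 was the lowest of its group. This order rests on how barcodes were given to mice: by hashtag share, the basal mice stood at 4.42%, 1.65% and 3.39% and the untreated mice at 5.66%, 0.170% and 1.72%, so that the groups overlapped, with untreated mouse 1 at 3 of 53 cells and mouse 3 at 1 of 58. Without thinning, 97, 10 and 16 cells passed (2.99% ± 1.30, 0.480% ± 0.0869 and 0.586% ± 0.394). With 3 mice against 3 no exact permutation test can give a p under 0.1, so none was used.

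**Figure D1:**
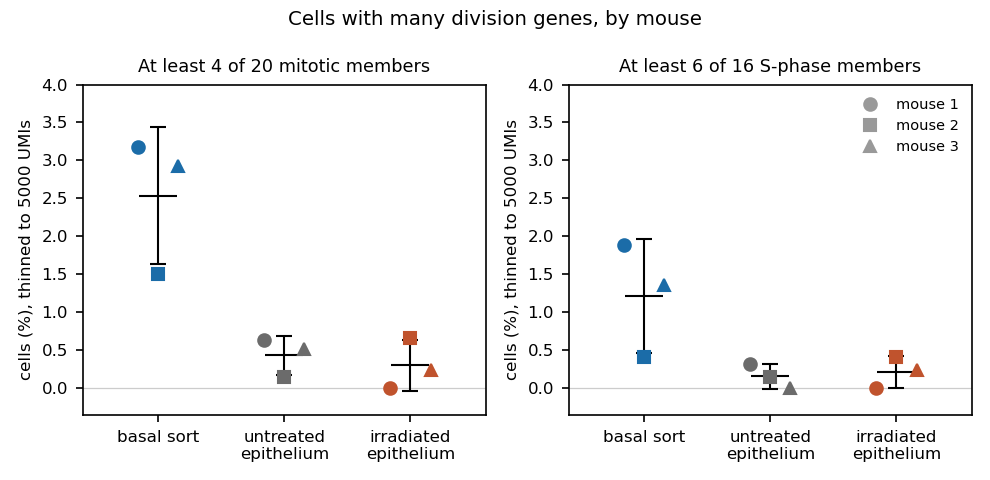
Share of kept cells per mouse, after thinning to 5000 UMIs, with UMIs of at least 4 of 20 mitotic members (left) or at least 6 of 16 S-phase members (right), in percent. Points are mice, horizontal lines means and bars SD over 3 mice. The basal mice lie from 1.5% to 3.18% for mitotic members, all above the other mice, of which the highest is at 0.661%.

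The S-phase members were also found together most often in the basal sort, in fewer cells. At least 6 of the 16 were found in 38 basal cells (1.89%, 0.409% and 1.36% of cells per mouse, mean 1.22% ± 0.750), 3 untreated cells (0.321%, 0.152% and 0%, mean 0.158% ± 0.161) and 6 irradiated cells (0%, 0.413% and 0.246%, mean 0.220% ± 0.208). Basal mouse 2 lay below irradiated mouse 2, so these ranges overlap by a narrow margin, while all basal mice were above the untreated mice. Without thinning the numbers were 209, 17 and 44 cells. The mitotic cut separated cells more sharply than the S-phase cut. In the thinned basal sort 87.4% of cells had no mitotic member at all, 17 cells had 3 or 4 and 42 had 8 or more. By contrast 62.9% of basal cells had at least 1 S-phase member, and 41 cells lay at 5 or 6, on either side of the cut.

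**Figure D2:**
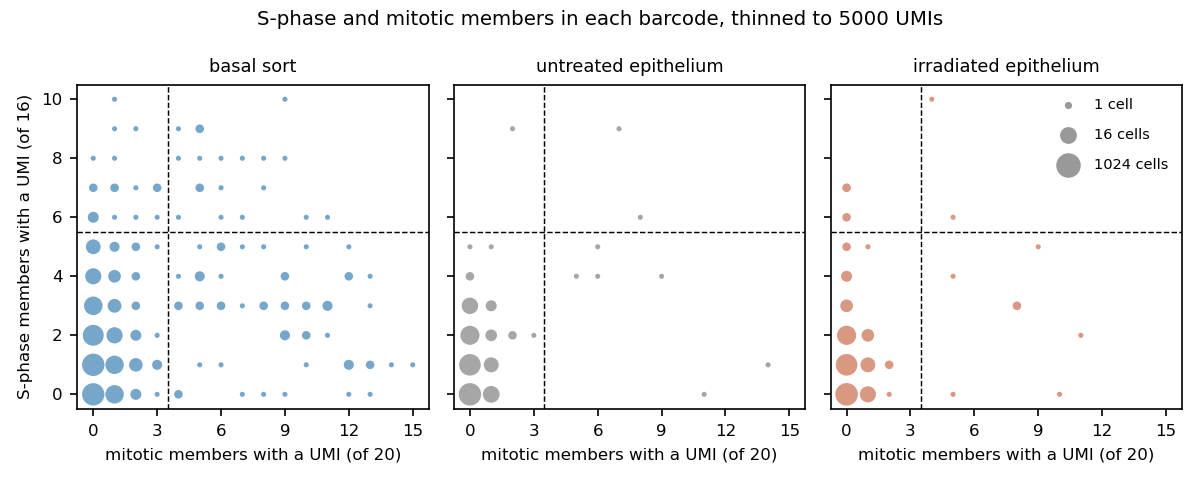
Number of S-phase members (vertical axis, of 16) against number of mitotic members (horizontal axis, of 20) with a UMI in each cell, after thinning to 5000 UMIs. Point area grows with the number of cells on a log scale, and dashed lines mark the cuts of 4 and 6. Most cells sit at 0 to 2 mitotic members, and the basal sort has cells spread out to 15.

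Both kinds of gene were often seen in the same barcode. In the unthinned basal sort 75 cells passed both cuts, 22 only the mitotic cut and 134 only the S-phase cut. Their median depth was 25880, 16042 and 19505 UMIs, against 13066 in cells that passed neither. After thinning these numbers were 19, 57 and 19, so how a cell is classed moves with depth. Of the 134 cells that passed only the S-phase cut, 129 were basal duct-like. In the irradiated epithelium 37 cells passed only the S-phase cut (19 granular duct-like and 13 intercalated duct-like), and in the untreated epithelium 9 did (5 intercalated duct-like).

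Within the 97 dividing basal cells, the members detected differed between cells past both cuts and cells past only the mitotic cut. This is a description of cells picked on these same genes. The latter were not without S-phase genes, with Pcna in 68.2% and Pclaf in 50%. Cells were not thinned here, and those past both cuts were deeper (median 25880 against 16042 UMIs), which raises detection. Of the 75 cells that passed both cuts, 96.0% had a UMI of Cdk1, the kinase of mitotic entry, against 40.9% of the 22 cells that passed only the mitotic cut. Top2a, which untangles DNA, was found in 89.3% and 50%, and Aurkb, a kinase of the chromosomal passenger complex, in 58.7% and 18.2%. The order was the opposite for the centromere genes Cenpf, Cenpe and Cenpa, whose products lie where spindle fibres attach, though not for Bub1 (50.7% and 18.2%), and Bub1b was near level (46.7% and 50%), both being checkpoint kinases of the same site. Cenpf was found in 66.7% and 95.5%, Cenpe, a kinetochore motor, in 62.7% and 90.9%, and Cenpa, the centromeric histone, in 68.0% and 95.5%. Ccnb2, a B-type cyclin, was found in 68.0% and 86.4%. Both general growth genes had UMIs in all 97 cells.

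Most dividing cells fell into a cluster of their own, led by Ube2c, Pclaf, Top2a and Cdk1 (113 cells, 96 of them basal), so their cell type was read from markers of the other classes. Each dividing cell was assigned to the class nearest to it over 112 marker genes, a step that gave 95.3% of 6841 other cells the class of their cluster. The class means came mostly from these same cells, so this share does not measure how well dividing cells were assigned. All 97 dividing basal cells were nearest to basal duct-like cells, 47, 12 and 38 per mouse. After thinning, 76 of 2510 cells nearest to that class were dividing, or 3.03% (exact binomial 95% interval 2.39% to 3.78%, which covers counting error only). No dividing cell of the sort was nearest to myoepithelial-like cells (0 of 206 thinned cells, exact upper limit 1.775%). Without thinning, dividing cells had median UMIs 1.89, 1.83 and 1.65 times those of basal duct-like cells past neither cut in the 3 mice. Mitochondrial shares were similar. Deeper cells pass the unthinned cuts more easily, which can raise such ratios. Basal cells called after thinning, at equal depth, had held a median of 28727 (both cuts) and 24737 UMIs (mitotic only), against 13680 (neither). Barcodes with 2 hashtags, which are known doublets, included 3.90% dividing cells in the basal sort, against 3.16% of kept cells. The part of undetected doublets in these counts was not tested.

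In the whole epithelium the few dividing cells were mostly nearest to other classes. Of the 10 in the untreated epithelium, 5 were nearest to intercalated duct-like cells, 3 to acinar-like, 1 to granular duct-like and 1 to basal duct-like cells. Of the 16 in the irradiated epithelium, 12 were nearest to granular duct-like, 3 to intercalated duct-like and 1 to luminal duct-like cells. Irradiated mouse 2 held 13 of these 16, and it also held 1259 of the 2063 irradiated cells. Ionocyte-like cells, named for Ascl3 and Foxi1, held none by the same assignment: 0 of 506 untreated cells (exact upper limit 0.726%) and 0 of 649 irradiated cells (0.567%). Few cells of the untreated epithelium were nearest to basal duct-like cells, and after thinning 1 of 39 of them was dividing (2.56%, exact interval 0.0649% to 13.5%). These counts are too small to compare classes between the libraries.

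In the basal sort dividing cells held most of the RNA of each mitotic member and a smaller part of that of most S-phase members. For each gene, dividing cells were picked here without counting that gene. They were still picked by the other mitotic members, and cells past only the S-phase cut counted as others. The contrast between the roles is therefore partly set by this rule and is given as a description. In the basal sort they held 52.8% to 97.9% of the UMIs of the 20 mitotic members (median 88.9%), with Aurkb at the top and Aurka at the bottom, and Tpx2 (66.5%), Bub1b (74.3%) and Cenpa (75.4%) also low. In the untreated and irradiated epithelium, on few UMIs, some were mostly elsewhere: Bub1b stood at 15.4% of 26 and 3.57% of 28 UMIs, and Cenpa at 35.1% of 94 and 31.7% of 164. Of the 16 S-phase members they held 10.9% to 87.0% (median 24.2%). Pclaf, the PCNA clamp-associated factor, stood out at 87.0%, followed by Tk1 (thymidine kinase) at 67.6% and Rrm2 (the regulated subunit of ribonucleotide reductase) at 50.2%. Pcna, the sliding clamp, stood at 12.5%. They held 45% of the UMIs of Stmn1, which destabilises microtubules, and 27.6% of those of Hmgb2, a chromatin protein.

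**Figure D3:**
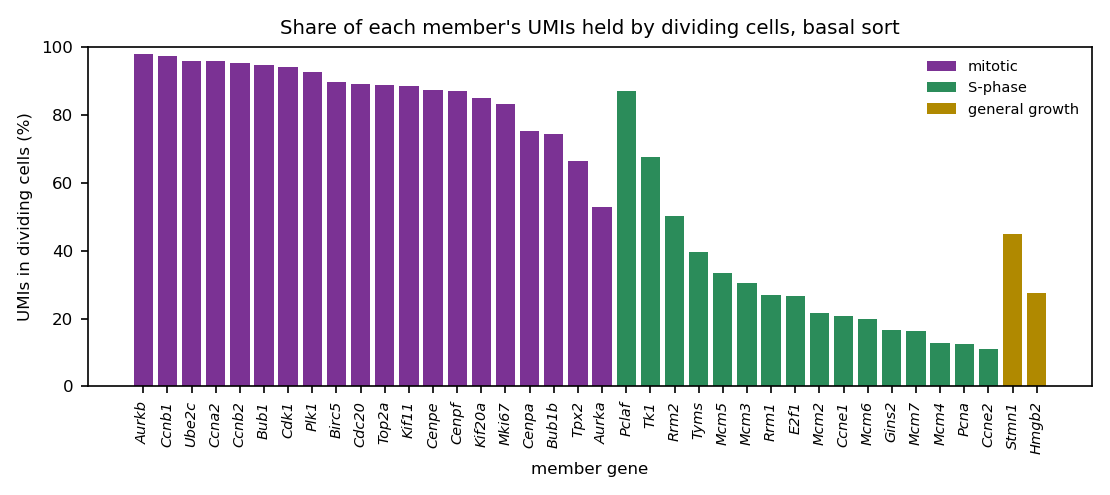
Percent of each member's UMIs in the basal sort that lay in dividing cells (at least 4 of the other mitotic members), with members sorted within each role. Mitotic members run from 97.9% down to 52.8% and S-phase members from 87.0% down to 10.9%.

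The same contrast shows in single genes. Ube2c had a UMI in 74 of 97 dividing basal cells (76.3%) and in 1.41% of the other basal cells, and Mki67, the proliferation antigen, in 80 of 94 (85.1%) and 2.38%. Pcna had a UMI in 87.6% of dividing cells and in 63.4% of the others. Such shares count barcodes with a UMI, which RNA free in the suspension can also give. In cells not called dividing, Ube2c had a UMI in 1.60% of basal duct-like cells of the basal sort, 0.193% of untreated ionocyte-like and 0.493% of untreated granular duct-like cells, at median depths of 14020, 11100 and 18190 UMIs. For Pcna, made at some level by most cells, no class is known to lack the gene, so its background is not known here. After thinning it had a UMI in 35.8% of basal duct-like, 25.8% of myoepithelial-like and 6.95% of acinar-like cells not called dividing. Its level was 229.9, 244.6 and 232.7 CPM in dividing cells of the 3 basal mice and 94.0, 100.8 and 96.9 CPM in the rest. For Stmn1 the levels were 1841, 2154 and 2032 CPM in dividing cells and 159.1, 119.0 and 133.4 CPM in the rest.

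Outside the cluster of dividing cells, the levels of S-phase members differed between classes. Mcm6, an MCM helicase subunit, stood at 24.4 ± 1.02 CPM in basal duct-like cells of the basal sort and at 3.57 ± 4.79 CPM in myoepithelial-like cells. In the untreated epithelium it stood at 16.8 ± 3.61 CPM in intercalated duct-like, 3.83 ± 1.17 in ionocyte-like, 3.33 ± 1.095 in granular duct-like and 1.42 ± 0.324 in acinar-like cells (SD, n = 3 mice). Among these 4 classes intercalated duct-like cells were the highest for Mcm6, and ionocyte-like and granular duct-like cells did not differ beyond their spread. Of these 4 untreated classes, intercalated duct-like cells had the highest mean for 10 of 16 S-phase members, 11 of 20 mitotic members and both growth genes. Tyms, thymidylate synthase, was an exception: it was highest in granular duct-like cells (20.1 ± 1.89 CPM), above intercalated duct-like (13.9 ± 1.91) and ionocyte-like cells (6.47 ± 0.436). Stmn1 stood at 143.8 ± 21.4 CPM in basal duct-like and 128.9 ± 7.70 CPM in myoepithelial-like cells, and from 9.08 to 53.3 CPM on average in the 4 untreated classes. The ranking of classes by mean took no minimum count and was not made over all genes. For some mitotic members it rests on very few UMIs. Among untreated cells not called dividing, Ccna2, Ccnb1 and Plk1 had a UMI in 2 cells each and Bub1 in 0. The classes were clustered on all genes, so these levels are not tested.

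The basal sort was then compared with the untreated epithelium in UMIs summed per mouse over all kept cells. In such sums more dividing cells and more RNA per cell cannot be told apart. Nearly every member was higher in the basal sort: of 37 tested, 34 were called higher and none lower (edgeR's quasi-likelihood test, Benjamini-Hochberg adjusted p under 0.05). Of all 12885 genes tested, 36% were called higher and 36.8% lower (72.8% in either direction). Plk1, a mitotic kinase, had too few counts to be tested, and its levels of 1.05, 0.741 and 1.05 CPM lay above those of untreated mice (0.247, 0.138 and 0 CPM). The median log2 fold change was 2.18 over the tested members and -0.03 over all genes. By role, 18 of 19 mitotic members (median 2.62), 14 of 16 S-phase members (median 1.21) and both growth genes were higher. These counts cannot be read as they stand, since the filter on low counts (0.756 CPM in at least 3 mice) was reached in all 3 untreated mice by 18 of the 37 only. The other 19 passed wholly or in part because the basal mice were high: Top2a, Ccna2, Ccnb1, Ccnb2, Ube2c, Cenpe, Cenpf, Cdc20, Bub1, Bub1b, Aurka, Aurkb, Tpx2, Kif11, Kif20a, Pclaf, Tk1, Ccne1 and E2f1. Their folds are given as a description, and their calls support nothing. Of the 18 that reached it in the untreated mice, 16 were higher: all 4 mitotic members (Mki67, Cdk1, Birc5 and Cenpa), 10 of 12 S-phase members and both growth genes. Fold changes are relative to the bulk of genes. Scaling by library size alone shifted the median of all genes by 0.51, turned 4636 higher and 4744 lower calls into 6730 and 2747, and lost none of the 34. CPM ratios exceed the fitted folds by about this shift.

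Among the mitotic members the levels of the basal mice were several times those of the untreated mice, and mouse 2 was the lowest basal mouse for every one named here. Ube2c stood at 30.4, 9.73 and 29.1 CPM in the basal mice and at 1.32, 1.80 and 0.704 CPM in the untreated mice (log2 fold change 3.65 ± 0.51, SE, edgeR). Ccnb1, the main mitotic cyclin, stood at 7.15, 3.28 and 7.14 CPM against 0.493, 0.207 and 0.264 CPM (3.70 ± 0.46).
Both were thus high in basal mice 1 and 3 and lower, but still above all untreated mice, in mouse 2. Cdk1 stood at 18.1, 7.41 and 17.6 CPM against 1.81, 1.45 and 1.06 CPM (2.83 ± 0.39, adjusted p = 0.000137). Top2a stood at 22.8, 8.04 and 21.7 CPM against 2.71, 0.691 and 2.38 CPM (2.75 ± 0.49), and Birc5, survivin, at 15.5, 8.89 and 15.3 CPM against 2.55, 1.18 and 0.880 CPM (2.62 ± 0.35, adjusted p = 0.000116).
For these genes the highest untreated value was 2.71 CPM, below the lowest basal value of each. Mki67 stood at 14.2, 5.82 and 10.9 CPM against 3.62, 0.899 and 1.76 CPM (1.86 ± 0.44, adjusted p = 0.00388). Its untreated mouse 1 came nearest to basal mouse 2, and without that untreated mouse the fold was 2.49. Aurka, a centrosomal kinase, was not called: it stood at 1.33, 1.06 and 1.33 CPM against 0.493, 0.899 and 0.176 CPM (0.68 ± 0.46, adjusted p = 0.21). The other called mitotic members were the cyclins Ccna2 and Ccnb2, the kinetochore genes Cenpa, Cenpe and Cenpf, the checkpoint genes Bub1, Bub1b and Cdc20, Aurkb and its fellow spindle genes Tpx2, Kif11 and Kif20a. Their log2 fold changes ran from 1.35 (Bub1b) to 3.58 (Tpx2). The Bub1b call was lost without untreated mouse 2 or 3 or basal mouse 1 or 3. Single untreated mice moved other folds by over 1.5 times: without mouse 1, Bub1 (2.23) went to 3.34 and Kif20a (2.12) to 3.49, and without mouse 2, Bub1 went to 1.61 and Cenpe (3.07) to 3.79.

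**Figure D4:**
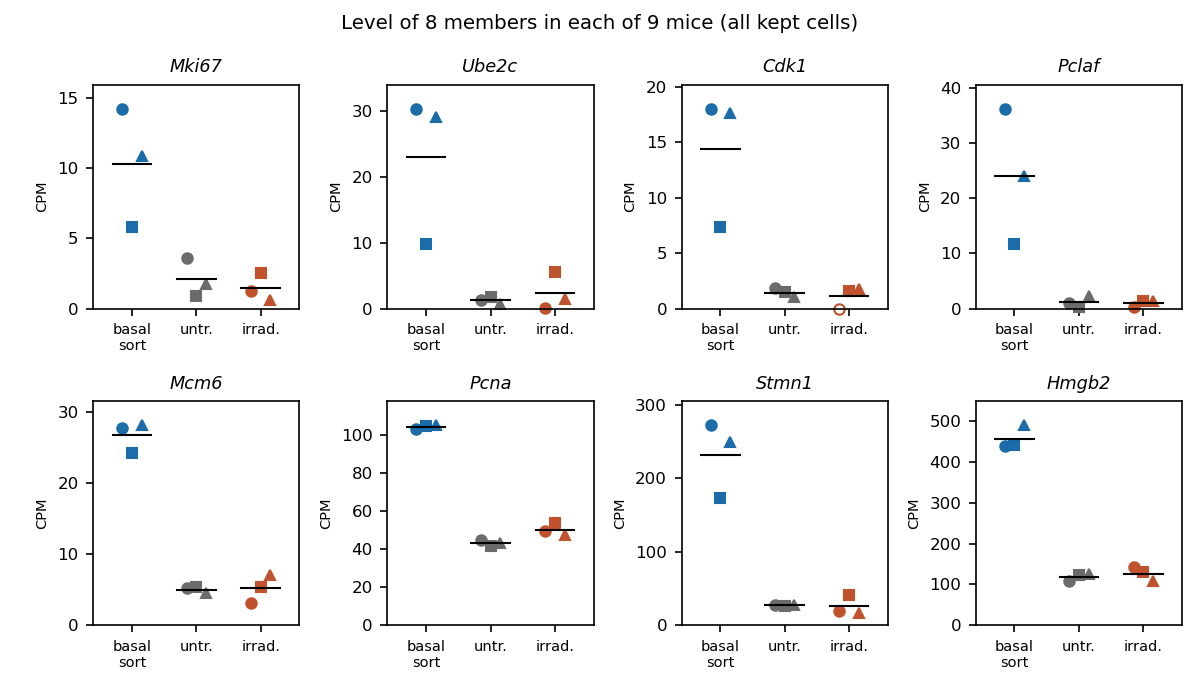
Level in CPM of 8 members in each of the 9 mice, all kept cells summed. Filled points are mice, lines group means, and the open point is a level of 0. Ube2c, Cdk1 and Pclaf are low in basal mouse 2, while Pcna and Mcm6 are nearly level over the basal mice.

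The S-phase members differed less, and more evenly over mice. Pcna stood at 103.2, 104.6 and 105.1 CPM in the basal mice and 44.9, 41.5 and 42.9 CPM in the untreated mice (log2 fold change 0.76 ± 0.08, adjusted p = 1.73e-05, edgeR). Mcm6 stood at 27.8, 24.2 and 28.2 CPM against 5.18, 5.32 and 4.49 CPM (1.90 ± 0.14, adjusted p = 2.04e-06).
In both genes the groups were far apart and basal mouse 2 did not stand out by more than a few CPM. Mcm2, another helicase subunit, stood at 9.48, 7.41 and 8.33 CPM against 4.28, 4.01 and 5.10 CPM, and its call was marginal (0.42 ± 0.17, adjusted p = 0.0481). The call was lost in DESeq2, without the filter on low counts, with the stricter cell filter, and without untreated mouse 1 or 2 or basal mouse 1 or 3. The other MCM subunits were higher by 0.59 (Mcm7) to 2.22 (Mcm5), and Gins2, part of the replicative helicase, by 1.88 ± 0.14.
Pclaf, like Ube2c, was low in basal mouse 2, with 36.3, 11.6 and 24.0 CPM against 0.987, 0.277 and 2.29 CPM (3.93 ± 0.57, and 4.80 without untreated mouse 3). Rrm2 stood at 10.5, 4.65 and 7.35 CPM against 1.15, 1.31 and 1.06 CPM (2.18 ± 0.34), with Rrm1, its constitutive partner, at 1.03 ± 0.14 and Tk1 at 1.72 ± 0.43 (2.34 without untreated mouse 3). Tyms was not called: it stood at 21.3, 15.8 and 18.6 CPM against 13.7, 10.6 and 12.4 CPM (0.10 ± 0.14, adjusted p = 0.529).
Its mice did not overlap in CPM, yet the fitted fold was near 0, and with library size scaling it was called higher. The G1 genes were low throughout. Ccne1, a cyclin E, stood at 2.00, 1.69 and 1.40 CPM against 0.411, 0.553 and 0.616 CPM (1.17 ± 0.32), and E2f1, the transcription factor, at 2.77, 2.75 and 3.57 CPM against 0.822, 1.31 and 0.440 CPM (1.26 ± 0.37). Ccne2, the other cyclin E, was not called, with 1.66, 0.846 and 1.82 CPM against 0.905, 0.760 and 0.880 CPM (0.31 ± 0.35). It was the 1 tested member whose mice overlapped in CPM. In 36 of the 37 tested members all basal mice were above all untreated mice, as in 54.2% of all genes tested. This count cannot be read as it stands, since 19 of the 37 were tested wholly or in part because the basal mice were high. Among the 18 that reached the filter's level in all untreated mice, only Ccne2 overlapped.

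The growth genes had the highest levels. Stmn1 stood at 272.6, 172.6 and 248.8 CPM in the basal mice and 27.6, 25.9 and 27.9 CPM in the untreated mice (log2 fold change 2.59 ± 0.17, adjusted p = 1.43e-06, edgeR). Hmgb2 stood at 438.4, 441.5 and 490.9 CPM against 108.9, 122.6 and 125.3 CPM (1.43 ± 0.11, adjusted p = 3.65e-06). The basal mice were far above the untreated mice in both, and mouse 2 was low for Stmn1 only.

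**Figure D5:**
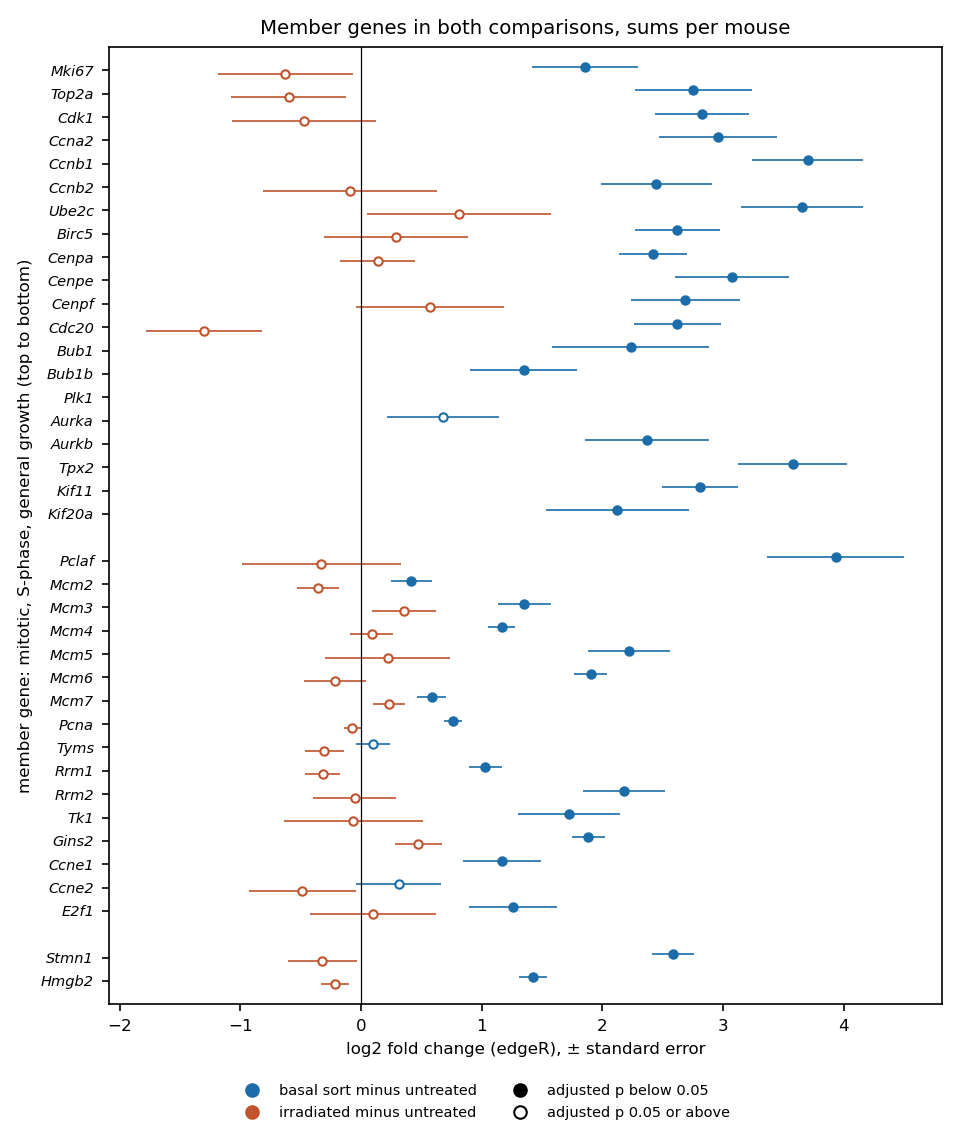
Log2 fold change (edgeR) of each tested member with its standard error, in the basal sort (blue) and in the irradiated epithelium (orange), each minus the untreated epithelium. Filled points passed an adjusted p of 0.05 and open points did not. The blue points are above 0, with Aurka, Tyms and Ccne2 open, and all orange points are open. Both comparisons share the untreated mice.

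With the dividing cells taken out of both groups, S-phase and growth members were still higher in the basal sort. Only cells past the mitotic cut were taken out. The 134 basal and 9 untreated cells that passed only the S-phase cut stayed in, and their part in these levels was not tested. Of 15 S-phase members tested, 13 were higher, among them low genes that the basal mice alone carry past the filter, and of all genes tested 35.9% were higher and 37% lower. Mcm6 stood at 22.6, 22.3 and 24.0 CPM against 4.21, 4.93 and 4.25 CPM (1.85 ± 0.14, edgeR). Stmn1 stood at 159.1, 119.0 and 133.4 CPM against 17.5, 18.8 and 19.6 CPM (2.38 ± 0.13). Tyms changed sides, with 13.7, 11.95 and 10.5 CPM against 12.4, 10.5 and 11.4 CPM (-0.42 ± 0.13, adjusted p = 0.0127), and was the 1 member called lower, although its mice overlapped in CPM. Only 6 of the 20 mitotic members were still tested and 5 were higher, but the cells had been removed by these genes.

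Cells of the same class were then set side by side in the untreated libraries. Basal duct-like cells numbered 2512 among kept basal cells and 54 among kept cells of the untreated epithelium, too few per mouse for a test. Their pooled levels had overlapping exact Poisson 95% intervals, which cover counting error only, for 36 of the 38 members. Pcna stood at 97.9 CPM (94.7 to 101.1) in the basal sort and 97.1 CPM (75.3 to 123.3) in the whole epithelium, and Mcm6 at 24.5 (22.9 to 26.2) and 21.7 CPM (12.2 to 35.9). The exceptions were both higher in the whole epithelium: Stmn1 at 147.8 (143.9 to 151.9) and 205.8 CPM (173.3 to 242.6), and Tyms at 12.3 (11.2 to 13.5) and 27.5 CPM (16.6 to 43.0). For low genes the interval of the 54 cells was wide, as for Ube2c, with 0 UMIs and an upper bound of 5.35 CPM. Low members such as Ccna2, at 0.194 CPM in the basal sort, could hardly fail to overlap. The count was not made over all genes, so it does not show that the cells are alike.

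Genes around the members were read from 10 lists of the pathway in the same comparison, against 36% higher and 36.8% lower of all genes tested. Genes that did not reach the filter's level in all untreated mice are left out of the counts that follow. Among G1 cyclins and kinases, 5 of 8 were higher and 2 lower. Ccnd2, a cyclin D, was at 125 ± 16.6 against 3.32 ± 0.631 CPM (log2 fold change 4.72), Cdk6, its kinase, was higher by 2.67, and Ccnd3 fell by 1.99. Of 6 CDK inhibitors 2 were higher and 3 lower, which is near the share of all genes: Cdkn1a (p21) was higher by 2.64, while Cdkn2c and Cdkn2d fell by 1.36 and 1.28. Cell cycle transcription factors were higher in 4 of 7 and lower in 1, among them Myc (3.03) and E2f3 (1.41). Of 8 pocket protein and MuvB genes 4 were higher and 2 lower (Lin54 1.14, Lin37 -1.06, Lin9 0.90), and of 9 origin licensing and firing genes 4 were higher and 4 lower (Dbf4 2.05, Cdt1 1.71), shares not far from those of all genes. Replication fork genes were higher in 11 and lower in 5 of 21 (Dut 1.34, Pola1 1.11).
Kinetochore and spindle checkpoint genes were higher in 8 of 11 and lower in none (Spc24 2.41, Cdca8 2.40), and mitotic kinesins and spindle genes were higher in 5 and lower in 1 of 8. Condensation and cohesion genes were higher in 9 and lower in 2 of 14, with the linker histone H1f0 at -2.18, Lmnb1 at 2.17 and Ncapg2 at 2.12. Checkpoint and damage genes were higher in 5 and lower in 1 of 11, led by Mdm2 (1.94) and Trp53 (1.56). Other genes with large folds, Kif15 (3.53), Uhrf1 (3.23), Hmmr (3.06), Ect2 (2.82), Foxm1 (2.54), Ndc80 (2.53), Mcm10 (1.97) and Chek1 (1.54), were tested wholly or in part because the basal mice were high.

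Irradiation was read in the same way, on all kept cells of the whole epithelium. None of the 26 members tested was called higher or lower (edgeR's quasi-likelihood test, adjusted p under 0.05), while 20.7% of all 11870 genes were higher and 19.6% lower (40.3% in either direction). DESeq2 called none either. At an unadjusted p under 0.05 there were 2, Cdc20 (log2 fold change -1.30 ± 0.48, adjusted p = 0.0592) and Gins2 (0.47 ± 0.19, adjusted p = 0.0809). The median over tested members was -0.08 and over all genes -0.03. Scaling by library size alone shifted the median of all genes by 0.30, moved the calls from 2452 higher and 2327 lower to 4700 and 998, and called Mcm7 and Gins2 higher. With dividing cells left out 13 members were tested and again none was called (lowest adjusted p = 0.0541, for Rrm1), against 20.7% higher and 19.8% lower of all genes. The other 12 members of the first test, which were Ccne1 and 11 mitotic members, had too few counts to be tested.

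The mitotic members varied between the irradiated mice in both directions. Ube2c stood at 0.139, 5.50 and 1.44 CPM in the irradiated mice, against 1.32, 1.80 and 0.704 CPM in the untreated mice, and Birc5 at 0.279, 3.38 and 2.39 CPM against 2.55, 1.18 and 0.880 CPM. Mki67 stood at 1.26, 2.52 and 0.575 CPM against 3.62, 0.899 and 1.76 CPM. In each gene the groups overlapped, and for Ube2c the irradiated mice spread on both sides of all untreated mice. Top2a (0.837, 2.05 and 1.25 CPM) and Cdk1 (0, 1.62 and 1.72 CPM) also overlapped with the untreated values given above. Ccnb1 was not tested, at 1.53, 0.755 and 0.192 CPM. Irradiated mouse 1, with the lowest Ube2c, Birc5 and Cdk1, had 347 cells, the fewest of all mice.
The S-phase members were steadier. Pcna stood at 49.4, 53.8 and 47.4 CPM, above all untreated mice, but the fold relative to the bulk of genes was -0.07 ± 0.07 (adjusted p = 0.436). Mcm6 stood at 3.07, 5.39 and 6.99 CPM (-0.22 ± 0.26), Mcm2 at 3.63, 4.53 and 4.41 CPM (-0.36 ± 0.17), and Tyms at 8.78, 12.9 and 13.9 CPM (-0.31 ± 0.16). Rrm2 stood at 0.837, 1.29 and 2.01 CPM, and Pclaf at 0.279, 1.29 and 1.44 CPM.
All of these but Pcna overlapped with the untreated mice. Among the tested members, 3 had CPM above the untreated mice in all irradiated mice (Pcna, Mcm7 and Gins2), against 45.6% of all genes tested. E2f1 stood at 0.279, 1.55 and 1.25 CPM, Ccne2 at 1.39, 0.719 and 0.287 CPM, and Ccne1 at 0.837, 1.44 and 0.670 CPM. Of the growth genes, Stmn1 stood at 19.0, 41.2 and 17.0 CPM (-0.32 ± 0.29) and Hmgb2 at 141.8, 129.7 and 107.6 CPM (-0.21 ± 0.11). Mouse 2 was above all untreated mice for Stmn1 and the other irradiated mice below them. Without irradiated mouse 2, Stmn1 was called lower.

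The mix of classes differed between these libraries (191 acinar-like cells untreated and 9 irradiated, 529 and 94 intercalated duct-like cells), so the classes with at least 20 cells in every mouse were compared on their own. Granular duct-like cells lay in different clusters in the groups: 605 of 609 untreated cells in a cluster led by kallikrein genes and Egf, and 1033 of 1128 irradiated cells in one led by Lgals3 and Reg3g. In these cells 12 members were tested, 2 were higher and 1 lower, against 19% higher and 19% lower of 9801 genes. Cenpa stood at 3.32, 3.56 and 2.82 CPM in irradiated and 1.101, 1.219 and 1.139 CPM in untreated mice (log2 fold change 1.44 ± 0.32, edgeR). It rests on 99 irradiated and 13 untreated UMIs, and no untreated mouse reached the filter's level of 2.098 CPM, so it was tested only because the irradiated mice were high and its call supports nothing. Tyms, highest in this class among the 4 untreated classes above, stood at 8.29, 11.96 and 13.2 CPM against 21.7, 18.04 and 20.5 CPM (-0.86 ± 0.19, adjusted p = 0.0035, edgeR).
All irradiated mice were above the untreated mice for Cenpa, as in 25.6% of genes tested, and below them for Tyms, as in 23%. Mcm7 stood at 10.9, 13.4 and 8.44 CPM against 7.71, 6.34 and 6.55 CPM (0.65 ± 0.20, adjusted p = 0.0247). Its call was lost in DESeq2, with the stricter cell filter and without untreated mouse 2, untreated mouse 3 or irradiated mouse 2. The Tyms call was lost with the stricter cell filter. The 3 calls were the same with dividing cells left out. Cenpa was the 1 mitotic member with enough counts to be tested.

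Ionocyte-like cells also lay in different clusters, 517 of 519 untreated cells in one led by Ascl3 and Kcnj8 and 627 of 635 irradiated cells in one led by Sult1c1 and Atp6v1g3. Here 9 members were tested, none was higher and both growth genes were lower, against 15.4% higher and 10.7% lower of 8888 genes. Hmgb2 stood at 93.0, 80.0 and 88.3 CPM in irradiated and 114.5, 146.4 and 117.0 CPM in untreated mice (-0.51 ± 0.11, adjusted p = 0.00478, edgeR). Stmn1 stood at 11.2, 13.7 and 11.8 CPM against 20.03, 21.72 and 19.91 CPM (-0.63 ± 0.19, adjusted p = 0.0242). The irradiated mice were below the untreated mice in both, as in 20.6% of genes tested. The Stmn1 call was lost in DESeq2, with the stricter cell filter and without untreated mouse 2 or irradiated mouse 3. Tyms was not called in this class, at 12.1, 8.53 and 6.65 CPM against 6.97, 6.21 and 6.22 CPM (0.43 ± 0.28).

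An interaction test with each mouse as a block asked whether the irradiated minus untreated difference was unlike between the classes, in which 11.3% of 10401 genes passed. Cenpa and Tyms passed among the members, with the effect in ionocyte-like minus that in granular duct-like cells at -2.88 ± 0.78 and 1.25 ± 0.34 (adjusted p = 0.0211 and 0.0236, edgeR). Mcm2, Mcm4, Mcm5, Mcm6, Mcm7, Pcna, Rrm1, Gins2, Stmn1 and Hmgb2 were tested and did not pass. With so few tested, the share of members that passed cannot be told from that of all genes. Cenpa in ionocyte-like cells rests on 8 irradiated and 12 untreated UMIs (0.930, 0.800 and 0.369 CPM against 2.61, 2.59 and 0.622 CPM). In granular duct-like cells no untreated mouse reached the filter's level for it, so its pass supports nothing. Intercalated duct-like cells, which hold dividing cells in both libraries, could not be tested, since a mouse had under 20. Their pooled level of Stmn1 was 52.0 CPM in 529 untreated and 172 CPM in 94 irradiated cells, and that of Mcm6 16.6 and 27.1 CPM. Only irradiated mouse 2 had enough of these cells for a level of its own.

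The same lists around the members were read in the irradiation comparison, against 20.7% higher and 19.6% lower of all genes. Genes that did not reach the filter's level in all untreated mice are again left out of the counts. Most lists are too short to tell their shares from those of all genes. In all kept cells Cdkn1a, which blocks cyclin-dependent kinases, was at 484 ± 193.5 against 44.2 ± 9.29 CPM (log2 fold change 3.14 ± 0.30), and Mdm2 and Gadd45a, targets of p53 like it, were higher by 2.40 and 1.78 (edgeR, all adjusted p under 0.05). Checkpoint and damage genes were higher in 3 and lower in 3 of 11, with Cdc25a, the phosphatase that frees CDK2, at -1.85. Of 6 CDK inhibitors 2 were higher and 3 lower, with Cdkn2b at 0.90 and Cdkn2c at -1.94. Of 7 transcription factors 3 were higher and 1 lower (Myc 2.06, E2f3 0.59, E2f4 0.47). Of 9 licensing genes 1 was higher, Cdt1 by 0.77, and 1 lower, Gmnn, which holds Cdt1 back and fell by 1.62. Cdc7, the origin-firing kinase, was higher by 1.34 but did not reach the filter's level in all untreated mice, so its call supports nothing.
Replication fork genes were higher in 1 and lower in 6 of 21 (Pole2 -1.47, Rpa1 -0.69, Pold2 -0.69). Condensation and cohesion genes were lower in 3 of 14 (Smc4 -0.96, Tmpo -0.51, Smc3 -0.51). G1 cyclins and kinases were lower in 2 of 8 (Cdk2 -0.79, Ccnd3 -0.42), and pocket protein and MuvB genes were higher and lower in 1 each of 8 (Rbbp4 0.26, Rbl2 -0.76). Kinetochore genes were higher in 1 of 11 (Zwint 1.03) and lower in none, and mitotic kinesins and spindle genes higher in none and lower in 1 of 8. That gene was Kif18a, a kinesin (-0.87 ± 0.31), named after its values were seen since its mean level was under 1 CPM.
Within the tested classes, Cdkn1a was higher by 3.59 in granular duct-like and 3.68 in ionocyte-like cells, and Zwint by 0.91 and 0.95. Ccnd1, a cyclin D, was higher by 1.62 in granular duct-like cells. In ionocyte-like cells its fold of 3.87 was carried by irradiated mouse 1, with 80.9, 10.9 and 15.1 CPM against 1.74, 1.03 and 2.49 CPM, and it was tested there only because the irradiated mice were high. In all kept cells Ccnd1 was not called (-0.36). Cdk2 fell by 1.40 and Rpa1 by 1.09 in granular duct-like cells, and Racgap1, a cytokinesis gene, fell by 1.48 in ionocyte-like cells. Smc4 fell by 0.96 and 1.03.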

How the data were processed

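Hashtagged droplet libraries (10x Genomics 3' v3) gave the deposited UMI counts per gene and barcode, made by the authors with Cell Ranger 6.1.2 against mm10, per the submitters' processing notes. The members and lists were chosen with earlier results of these data known. Barcodes under 500 genes or above 20% mitochondrial UMIs were dropped, and the rest were given to mice by Seurat 5.3.0 (HTODemux, 5 starting clusters), and doublets by hashtag or Scrublet were left out. Cells were clustered with scanpy 1.11.5 (2000 variable genes, 30 principal components, 15 neighbours, Leiden resolution 1), and clusters were named from fixed markers. Giving dividing cells to the nearest class was chosen after seeing that they shared a cluster. Counts were summed per mouse, for a class where each mouse had at least 20 cells, and tested over all genes with edgeR 4.0.16 (filterByExpr, TMM, quasi-likelihood, Benjamini-Hochberg, threshold 0.05, the compared groups only) in R 4.3.3, with DESeq2 1.42.0 as an alternative. Called means an adjusted p under 0.05. Library totals and depths stand with the results. In simulated counts with known changes, 4-fold changes were recovered in 100% and 2-fold changes in 47% to 64% of genes. The changes were placed only in well-counted genes, at a fixed spread between mice. These shares therefore do not hold for members with few counts or a wide spread. The planned permutation test of shares was not used, since the shares are a score over the members. Per-mouse values are given for 17 members over the 3 roles and for members whose call went against most, and up to 3 genes per list past the threshold, by size of change, with a mean of at least 1 CPM. Samples are mice, told apart only by hashtag.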

Additional observations from a re-analysis of the deposited data

Results flagged for a closer look

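An interaction test over the same 6 mice set the effect of irradiation in ionocyte-like against that in granular duct-like cells. It passed 2 members (edgeR, adjusted over 10401 genes, of which 11.3% passed). With so few members tested, their share cannot be told from that of all genes. For Cenpa, the centromeric histone, the effect in ionocyte-like minus that in granular duct-like cells was -2.88 ± 0.78 on the log2 scale (SE, adjusted p = 0.0211). In ionocyte-like cells it rests on 8 irradiated and 12 untreated UMIs. In granular duct-like cells no untreated mouse reached the level of the filter on low counts, so its pass supports nothing. For Tyms, thymidylate synthase, the same difference was 1.25 ± 0.34 (adjusted p = 0.0236), with a lower level in irradiated granular duct-like cells and no call in ionocyte-like cells. Both classes lay in different clusters in the 2 libraries, and the part of this in the differences was not tested.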

How the results depend on the processing

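Over the alternatives run, 471 of 502 values kept their side of the threshold, and their direction where called, in the basal comparison. This held for 337 of 346 in irradiated against untreated epithelium, 131 of 141 in granular duct-like and 97 of 102 in ionocyte-like cells. Values not called could change sign, as Ube2c did with irradiation, from -0.850 to 1.22 when 1 mouse was left out. The S-phase share depended most on the settings. In the basal sort it was 6.49% without thinning, 2.21% with a minimum of 5 members and 0.459% with 8. In the untreated epithelium it was 0.816% without thinning, 0.323% with a minimum of 5 and 1.32% with mice called by hashtag share, and in the irradiated epithelium 1.61% without thinning. The mitotic share of the untreated epithelium was 2.52% with mice called by hashtag share, which gave mice of 58, 656 and 64 cells, and the untreated mice then overlapped with the basal mice. TTTGAA was left in 37.5% of mitotic promoters within 150 bases, and E2F letters in 30.8% of S-phase promoters. Without dividing cells, 20 members were higher in the basal sort and 1 lower, and Tyms turned to -0.42. With irradiation, library size scaling called 2 members higher (Mcm7 and Gins2). No filter on low counts called 1 lower (Cdc20), calling mice by hashtag share 2 (Cdc20 and Hmgb2) and the stricter cell filter 1 (Hmgb2). In granular duct-like cells 1 member was higher in DESeq2 and with the stricter filter, and 5 without a filter, and in ionocyte-like cells 1 was lower in DESeq2 and with the stricter filter.

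Leaving out 1 mouse at a time, the basal comparison gave 32 to 35 higher and 0 lower, irradiation 0 to 1 higher (Gins2 without irradiated mouse 1) and 0 to 1 lower (Cdc20 without untreated mouse 3, Stmn1 without irradiated mouse 2). Granular duct-like cells gave 1 to 2 higher and 1 to 2 lower, and ionocyte-like cells 0 to 1 higher (Gins2 without untreated mouse 3) and 1 to 2 lower. Granular duct-like cells gained Hmgb2 without untreated mouse 1, Pcna without untreated mouse 2 and Rrm1 without irradiated mouse 3. Mitotic shares ran from 2.22% to 3.05% (basal), 0.334% to 0.579% (untreated) and 0.123% to 0.454% (irradiated), and S-phase shares from 0.885% to 1.63%, 0.0760% to 0.237% and 0.123% to 0.330%.

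The hashtag number marks different mice in each group and pairs nothing. With it as a replicate block, 33 members were higher in the basal sort (Mcm2 lost), no other count changed, and the mean difference of the mitotic share within hashtag numbers was 2.10 percentage points. Deviations of same-numbered mice correlated between -0.189 and 0.043. Calling mice by hashtag share was not run within classes, where a mouse had under 20 cells. Low counts left 12 of 38 members untested in the irradiation comparison, 26 within granular duct-like and 29 within ionocyte-like cells.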

Other observations

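In the basal sort, barcodes with no hashtag call held few dividing cells, while those removed as doublets did not. Of basal barcodes with no hashtag call, 2 of 998 (0.200%) had UMIs of at least 4 mitotic members, against 3.16% of the kept basal cells. In the untreated epithelium 5 of 1778 did (0.281%), against 0.478% of its kept cells. In the irradiated epithelium 1 of 295 did (0.339%), against 0.776% of its kept cells. Among basal barcodes removed as doublets, 9 of 231 with 2 hashtags (3.90%) and 4 of 116 marked by Scrublet (3.45%) did. When clusters were built with the 38 members left out of the variable genes, a cluster of dividing cells still formed, with 93 cells. Its leading genes were mostly members, with Ube2c, Top2a and Pclaf among them, beside histone genes such as Hist1h2ap. The cluster held 76 of the 97 basal, 6 of the 10 untreated and 9 of the 16 irradiated dividing cells.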
